A study of Mus musculus with 4 samples.

Results

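The genes described here encode the cohesin ring and the proteins that load it onto chromosomes, lock it there and take it off again, 10 genes of the 19938 that could be named on the arrays. They were taken from a list of symbols, and each was measured by 1 probe set annotated to that symbol alone. Expression was compared on Affymetrix arrays between sorted splenic cDC2 of Id2 KO Zbtb46-GFP chimeric mice and those of Zbtb46-GFP chimeric mice without the Id2 KO label (WT), with 2 arrays per group. cDC2 are conventional dendritic cells, known above all for priming CD4 T cells, and Zbtb46-GFP is a reporter that marks cells using the dendritic cell factor gene Zbtb46, carried by both groups. Id2 encodes a helix-loop-helix protein that binds E proteins and keeps them from DNA. The ages of the mice, which cells of the chimeras came from the donor, and the part of Id2 that was deleted are not given in the sources used here. The sample labels name the spleen, whereas the design text also mentions bone marrow. No label says that the 2 arrays of a group came from different mice, so the p-values reflect the spread between these arrays, which may be technical.

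Cohesin is a ring that holds DNA. Smc1a and Smc3 encode its long ATPase arms, Rad21 the kleisin that closes them, and Stag1 and Stag2 alternative subunits that bind the kleisin. Nipbl encodes the loader, Wapl the factor that opens the ring and releases it, and Pds5a and Pds5b proteins that serve both release and its opposite. Esco2 encodes an acetyltransferase that modifies SMC3 during DNA replication, after which sister chromatids stay joined until mitosis. The same ring also extrudes chromatin loops that stall at CTCF, and in that role it takes part in gene control.

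The bases just before the start of 4 of these genes are shown as examples. They are Smc3, which was higher in the Id2 KO-labelled arrays, and Smc1a, its partner in the ring. The others are Pds5b and Wapl, which act on release and whose differences did not pass the test. The windows are the 250 bases before each start in RefSeq's mouse assembly GRCm38.p6, and 6 of the 10 genes matched the table of windows. Capitals mark E2F-type letters (TTCCCGC or TTGGCGC), the CHR element of genes used late in the cell cycle (TTTGAA), the CCAAT box (CCAAT) and the E-box to which E proteins bind (CANNTG), each searched on both strands.
Smc3, chr19:53600146-53600395, plus strand: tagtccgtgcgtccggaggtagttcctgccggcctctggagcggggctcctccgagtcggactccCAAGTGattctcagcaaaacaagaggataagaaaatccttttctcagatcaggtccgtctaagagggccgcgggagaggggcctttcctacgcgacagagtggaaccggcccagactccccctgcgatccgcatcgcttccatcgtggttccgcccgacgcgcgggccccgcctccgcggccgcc
Smc1a, chrX:152016178-152016427, plus strand: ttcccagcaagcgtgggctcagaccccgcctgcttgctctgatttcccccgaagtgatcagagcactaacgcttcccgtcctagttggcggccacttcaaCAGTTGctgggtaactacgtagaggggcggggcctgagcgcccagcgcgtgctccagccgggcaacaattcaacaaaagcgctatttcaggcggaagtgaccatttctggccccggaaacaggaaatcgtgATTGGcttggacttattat
Pds5b, chr5:150673577-150673826, plus strand: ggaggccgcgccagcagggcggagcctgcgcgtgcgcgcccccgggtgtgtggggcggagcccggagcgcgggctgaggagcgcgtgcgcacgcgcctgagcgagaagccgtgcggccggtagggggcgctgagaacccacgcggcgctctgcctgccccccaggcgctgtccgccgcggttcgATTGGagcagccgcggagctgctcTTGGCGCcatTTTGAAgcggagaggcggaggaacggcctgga
Wapl, chr14:34673678-34673927, plus strand: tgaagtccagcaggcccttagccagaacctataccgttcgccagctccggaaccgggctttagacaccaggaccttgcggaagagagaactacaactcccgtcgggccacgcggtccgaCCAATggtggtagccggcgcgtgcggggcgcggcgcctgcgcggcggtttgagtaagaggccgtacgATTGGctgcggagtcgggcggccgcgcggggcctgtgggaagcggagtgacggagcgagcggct

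The window of Smc3 held 1 E-box, at -185 to -180 from the start, and none of the other letters. That of Smc1a held 1 E-box, at -150 to -145, and 1 CCAAT box. The Pds5b window held an E2F-type match at -42 to -36, a CHR match at -32 to -27 and a CCAAT box at -66 to -62, and that of Wapl held 2 CCAAT boxes. Of the other matched genes, Pds5a had 3 E2F-type matches, of which the 2 nearer the start overlap, and Stag1 had 1 E2F-type match and 1 CCAAT box. Among all 32851 windows of this length, 5.62% held E2F-type letters, 16% the CHR letters, 33.8% a CCAAT box and 66.2% an E-box. A match describes the letters and is not a shown binding site.

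The values are log2 intensities, and a difference of 1 on this scale is a 2-fold change. The array median lay between 128 and 134 on the linear scale. Id2 itself was at 8.71 and 8.97 in the Id2 KO-labelled arrays, against 9.14 and 9.08 in the WT arrays, a difference of -0.27 that did not pass (limma, adjusted p = 0.172). Id2 KO replicate 2 was the nearer to the WT arrays, and without it the Id2 difference was -0.40. The single probe set of Id2 checks nothing if it lies outside the deleted part, so the groups are named by their labels. The Id2 KO-labelled arrays were lower in Xist, with a difference of -5.28, and higher in the Y-linked gene Kdm5d, by 2.66. Sex and the genotype label run together here and cannot be told apart. Of 12 markers fixed for cDC2, 4 fell (Zbtb46, Itgam, Cd4 and Klf4), 1 rose (Esam) and 7 did not pass. Among all tested genes 2.52% fell and 5.53% rose. The furthest apart were Zbtb46, with a difference of -1.02, and Itgam, which averaged 9.78 in the Id2 KO-labelled arrays and 10.77 in the WT arrays. The call of Klf4 was lost without Id2 KO replicate 2 and without either WT array, and that of Esam without WT replicate 1.

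Of the 10 cohesin genes, 3 rose in the Id2 KO-labelled arrays (Esco2, Rad21 and Smc3) and none fell (limma, adjusted p below 0.05 over 11963 tested genes). In all tested genes 8.04% changed, 5.53% upwards and 2.52% downwards. At an unadjusted p below 0.05, 8 of the 10 were higher and 0 lower, against 13.1% and 7.61% of all tested genes. The median difference of the 10 was 0.31, against 0.01 for all tested genes. In 9 of the 10, both Id2 KO-labelled arrays stood above both WT arrays, which was so for 27.9% of tested genes, and in none of the 10 did both stand below, which was so for 22.8%. In these sorted bulk samples, more cells that express a gene and more of its RNA per cell cannot be told apart. All 10 genes lay above the filter on low intensity.

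**Figure D1:**
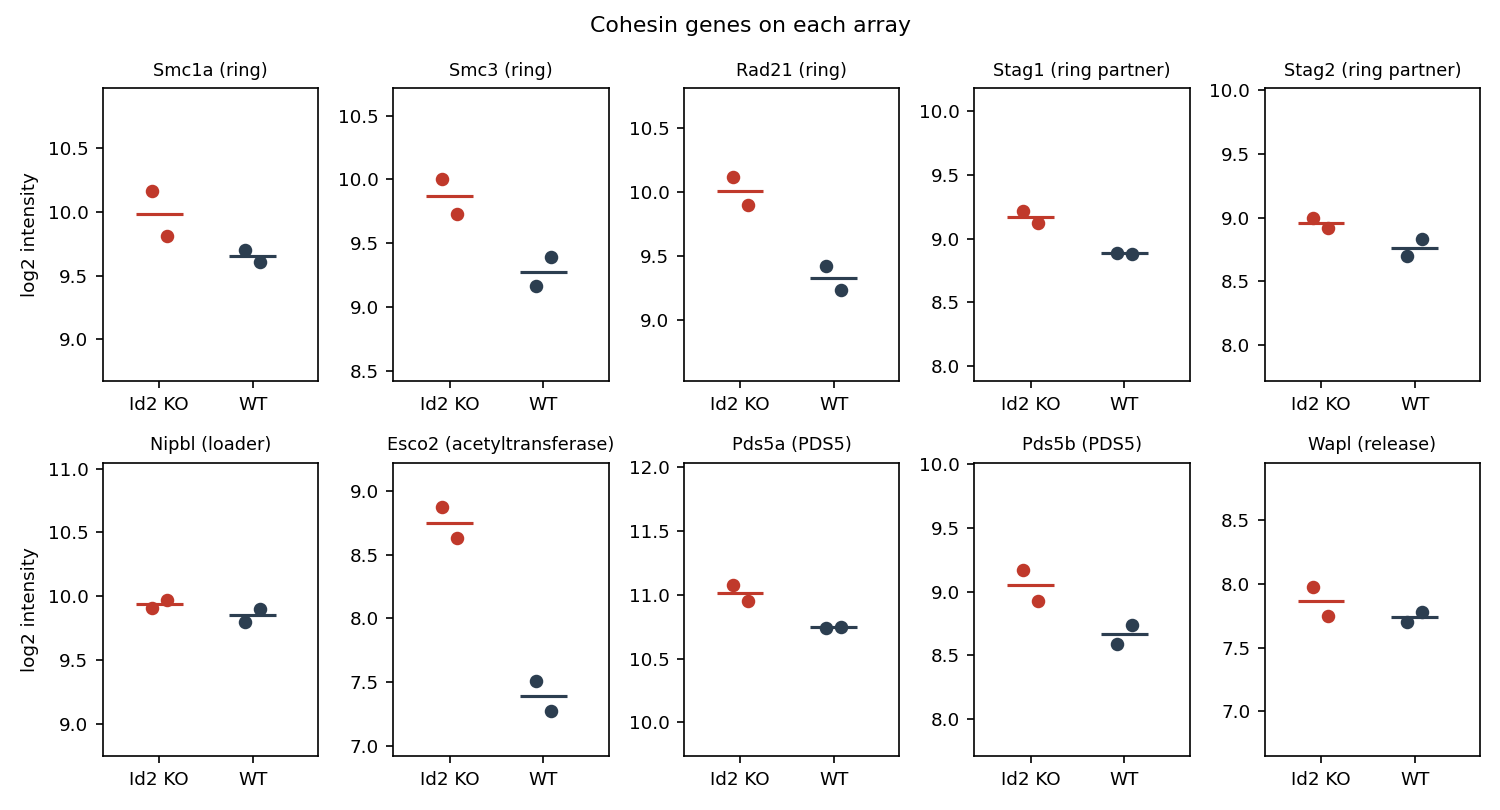
Log2 intensity of each cohesin gene on the 2 Id2 KO-labelled arrays (red) and the 2 WT arrays (blue), with replicate 1 left of replicate 2 and the horizontal line at the group mean. Each panel spans the same range of the log2 scale but has its own centre, since levels of different probe sets are not compared. The groups lie furthest apart in Esco2, and they overlap only in Wapl.

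In the ring itself, the kleisin gene Rad21 and the arm gene Smc3 rose. Rad21 was at 10.12 and 9.90 in the Id2 KO-labelled arrays, against 9.42 and 9.23 in the WT arrays. The difference was 0.69 (95% interval 0.45 to 0.93), or 1.62-fold (limma, adjusted p = 0.00376). Both Id2 KO-labelled arrays were above both WT arrays by more than either pair differed within itself. Smc3 was at linear intensities of 1022 and 848 in the Id2 KO-labelled arrays, against 571 and 670 in WT, a log2 difference of 0.59 (0.33 to 0.85), or 1.51-fold (adjusted p = 0.0145). Here WT replicate 2 was the higher of the WT arrays, and without WT replicate 1 the difference was 0.48 and did not pass (adjusted p = 0.123).

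Smc1a, the other arm gene, was at 10.16 and 9.81 in the Id2 KO-labelled arrays, against 9.70 and 9.61 in WT. Replicate 1 of the Id2 KO-labelled arrays stood apart from the other 3 arrays. The difference of 0.33 (0.06 to 0.60) did not pass (adjusted p = 0.144). It passed without that group's replicate 2 (0.51, adjusted p = 0.0107) and was 0.15 without its replicate 1 (adjusted p = 0.572). The arms of one heterodimer thus differed in their calls, but their intervals overlap and the difference between them was not tested.

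The alternative subunit genes Stag1 and Stag2 were slightly higher without passing. Stag1 was at 9.22 and 9.12 in the Id2 KO-labelled arrays, against 8.89 and 8.88 in WT (difference 0.28, 95% interval 0.10 to 0.47, adjusted p = 0.073). Stag2 was at linear intensities of 513 and 485 in the Id2 KO-labelled arrays, against 416 and 456 in WT (log2 difference 0.20, 0.00 to 0.39, adjusted p = 0.241). In each of these genes both Id2 KO-labelled arrays were above both WT arrays, which was so for 27.9% of tested genes. The intervals of Stag1 and Stag2 lie largely over the same values. Smc1a and Stag2 are on the X chromosome, and the other 8 genes are autosomal, Smc3 on chromosome 19, Rad21 and Nipbl on 15, Stag1 on 9, Wapl and Esco2 on 14, and Pds5a and Pds5b on 5. Of 330 tested X-linked genes 7.27% changed.

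The loader gene Nipbl had the smallest difference of the 10. It was at 9.91 and 9.97 in the Id2 KO-labelled arrays, against 9.80 and 9.90 in WT, a difference of 0.09 (-0.10 to 0.27, adjusted p = 0.626). The upper end of that interval lies below the lower ends of the intervals of Rad21 and Smc3. Its loading partner gene Mau2, named after its values were seen, differed by 0.12 (-0.10 to 0.34, adjusted p = 0.554).

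Esco2 rose the most. It was at 8.87 and 8.63 in the Id2 KO-labelled arrays, against 7.51 and 7.27 in the WT arrays, and averaged 8.75 ± 0.17 and 7.39 ± 0.18 in these groups (SD, n = 2 each). The difference was 1.36 (1.10 to 1.62), or 2.56-fold (adjusted p = 0.000177). Both arrays of each group stayed close together compared with the distance between the groups. Esco1, the related acetyltransferase gene that acts throughout the cell cycle, differed by 0.09 (-0.10 to 0.28, adjusted p = 0.628) and is named after its values were seen. Esco1 had 2 probe sets, and with their mean it differed by -0.02. The tested genes outside the 10 whose values over the 4 arrays ran closest to those of Esco2 were the scaffold gene Iqgap3, the histone chaperone gene Asf1b and Ly6d, a surface marker of early lymphoid cells. After centring on each gene's mean, their Euclidean distances to Esco2 were 0.093, 0.093 and 0.133, in that order. Their differences, close to that of Esco2 by the way they were chosen, were 1.40 for Iqgap3, 1.36 for Asf1b and 1.31 for Ly6d.

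Of the genes of release, none passed. Pds5b was at 9.17 and 8.93 in the Id2 KO-labelled arrays, against 8.59 and 8.74 in WT, a difference of 0.38 (0.15 to 0.62) close to the threshold (adjusted p = 0.0591). It passed with each array centred on its median (0.40, adjusted p = 0.0476) and without Id2 KO replicate 2 (0.50, adjusted p = 0.0146), and without Id2 KO replicate 1 it was 0.26 (adjusted p = 0.251). Pds5a was at 11.08 and 10.95 in the Id2 KO-labelled arrays, against 10.74 and 10.75 in WT (0.27, 0.08 to 0.46, adjusted p = 0.0985). For both PDS5 genes the Id2 KO-labelled arrays were above the WT arrays, as in 27.9% of tested genes. Wapl was at 7.98 and 7.75 in the Id2 KO-labelled arrays, against 7.70 and 7.78 in WT, and only in this gene did the groups overlap (0.12, -0.10 to 0.35, adjusted p = 0.541).

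**Figure D2:**
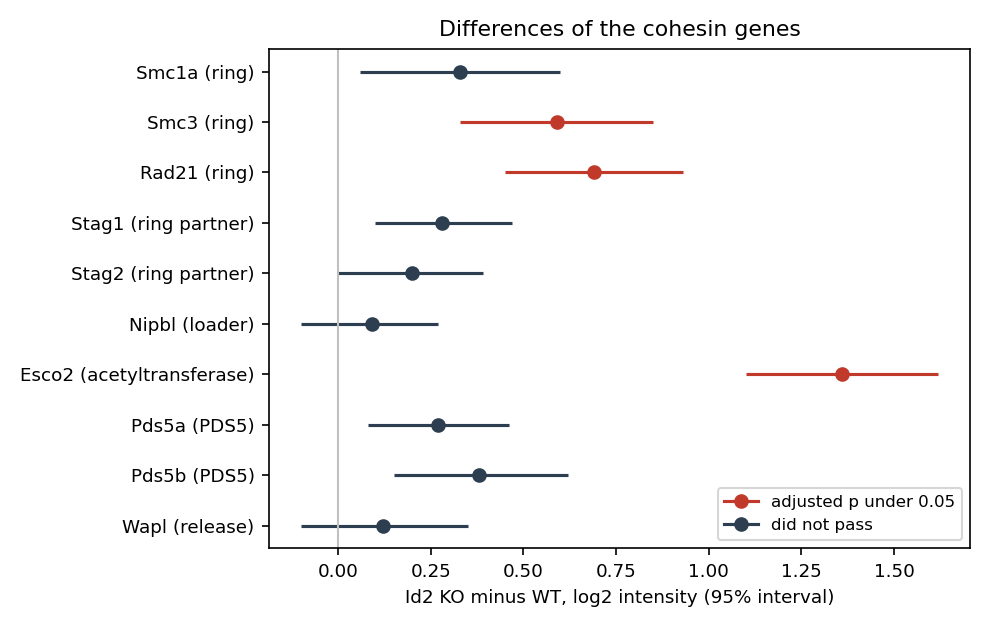
Difference in log2 intensity, Id2 KO minus WT, for each cohesin gene (point) with its unadjusted 95% interval from limma (line). Red marks adjusted p under 0.05. Esco2 lies at 1.36, Rad21 at 0.69 and Smc3 at 0.59, and the other 7 lie between 0.09 and 0.38.

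Replicate 1 of the Id2 KO-labelled arrays was higher than replicate 2 in 9 of the 10 genes, by a median of 0.23, and Nipbl was the exception. In all tested genes this median was 0.02, and 6630 of 11963 were higher in that replicate. The 17 tested proliferation genes were all higher there, by a median of 0.45. Between the WT arrays, replicate 1 minus replicate 2 had a median of -0.05 in the cohesin genes and -0.09 in the proliferation genes. The Id2 KO-labelled array with more of the proliferation genes also had more of most cohesin genes. This is a single pair of arrays, and a link was not tested.

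**Figure D3:**
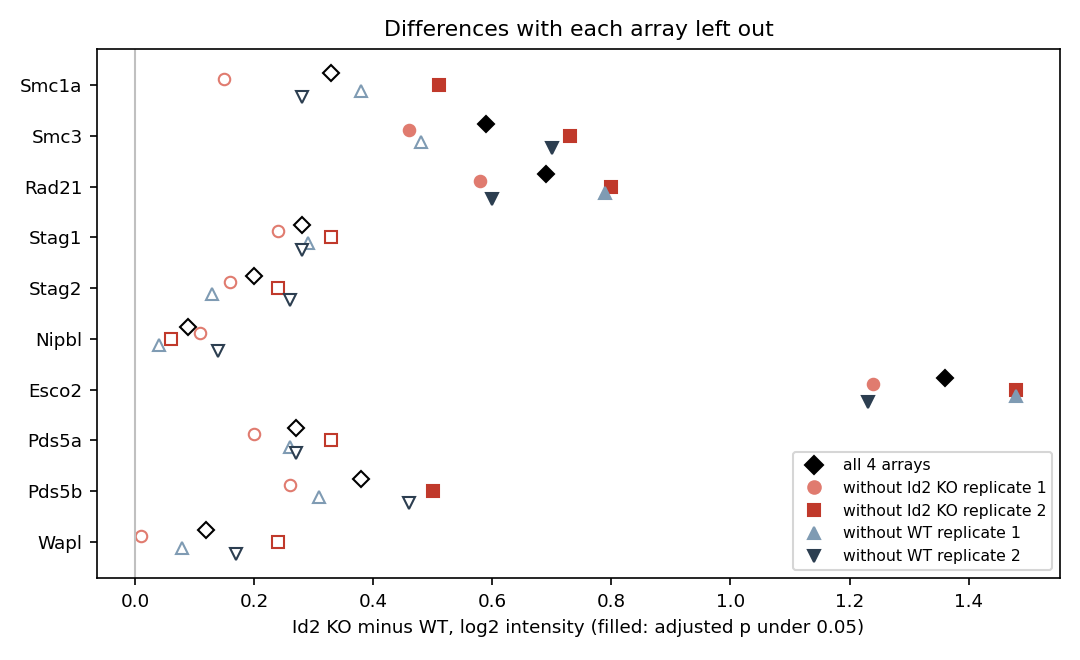
Difference in log2 intensity, Id2 KO minus WT, for each cohesin gene with all 4 arrays and with each array left out in turn. Filled symbols have adjusted p under 0.05. Esco2 and Rad21 are filled in every case, Smc3 is open without WT replicate 1, and Smc1a and Pds5b are filled only without Id2 KO replicate 2.

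Regulators of cohesion outside the 10 were compared next, as a list of 12 that includes genes whose products protect or cut cohesin at mitosis. Of these 8 rose, none fell and 4 did not pass, with a median difference of 1.00. Of all tested genes 5.53% rose and 2.52% fell, and the counts of the lists below are to be read beside these shares. Cdca5, which encodes sororin, the factor that keeps WAPL from opening acetylated rings, was at 8.74 and 8.48 in the Id2 KO-labelled arrays, against 7.17 and 7.08 in WT (difference 1.49, 2.8-fold, limma adjusted p = 7.64e-05). The shugoshin genes, whose products shield cohesin at centromeres, rose as well, Sgo1 by 1.34 and Sgo2a by 1.16. Sgo2a lay below the filter level of 6.77 on both WT arrays, at 6.33 and 6.71, so the size of its rise is uncertain. Espl1, which encodes separase, the protease that cuts RAD21 at anaphase, was at 9.34 and 9.30 in the Id2 KO-labelled arrays, against 8.47 and 8.48 in WT (0.85, adjusted p = 0.000279).

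The mitotic kinase genes of this list also rose, Plk1 by 1.61, Bub1 by 1.60, Aurkb by 1.51 and Haspin by 0.78. The 4 that did not pass are named after their values were seen. Beside Mau2 and Esco1 they were Pttg1, which encodes securin, the inhibitor of separase (-0.21, -0.39 to -0.03, adjusted p = 0.171), and Hdac8, which encodes the SMC3 deacetylase (-0.14, -0.38 to 0.09, adjusted p = 0.504). Pttg1 was at 9.49 and 9.44 in the Id2 KO-labelled arrays, against 9.69 and 9.66 in WT. Both Id2 KO-labelled arrays were thus below both WT arrays, which was so for 22.8% of tested genes.

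Genes whose products link cohesion to the replication fork formed a list of 8, of which 7 rose and none fell, with a median of 0.63. Dscc1, a subunit of an alternative clamp loader, rose by 0.90 and Chtf18, the large subunit of that loader, by 0.34 (adjusted p = 0.0494). The checkpoint mediator gene Clspn rose by 0.88, the fork scaffold gene Wdhd1 by 0.76, the helicase gene Ddx11 by 0.69, and the fork protection genes Timeless and Tipin by 0.57 and 0.55. Dscc1 (adjusted p = 0.0168) lay at 7.98 and 7.30 in the Id2 KO-labelled arrays, against 6.71 and 6.78 in WT, with the widest spread of the 8 between the Id2 KO-labelled arrays. Chtf8, named after its values were seen, was 0.29 higher without passing (adjusted p = 0.0715). Without WT replicate 1 the calls of Dscc1, Chtf18, Timeless and Tipin were lost, which left 3. Those of Dscc1 and Chtf18 were also lost without WT replicate 2, and that of Chtf18 without Id2 KO replicate 1. Clspn lay below the filter level on both WT arrays, at 6.62 and 6.51, so the size of its rise is uncertain.

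Of the genes for factors at loop anchors, Ctcf, whose product halts cohesin on DNA, rose by 0.38 (0.18 to 0.57, adjusted p = 0.0304). It was at 9.76 and 9.61 in the Id2 KO-labelled arrays, against 9.32 and 9.30 in WT. The call was lost without Id2 KO replicate 1, without WT replicate 1 and without WT replicate 2. Maz (0.30, adjusted p = 0.0546), Yy1 (-0.02) and Ldb1 (0.00) did not pass, and the remaining gene of the list, Zfp143, had no probe set annotated to it alone. Among kleisins and partners used in meiosis, 1 of 4 genes was above the filter level. It was the meiotic kleisin gene Rec8, at 7.14 and 7.27 in the Id2 KO-labelled arrays, against 7.93 and 7.93 in WT (-0.72, -0.91 to -0.53, adjusted p = 0.000877), so Rec8 fell where the mitotic kleisin gene Rad21 rose.

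The other ring complexes of the SMC family were set beside cohesin. Condensin, which compacts chromosomes in mitosis, had 7 of 8 genes higher and none lower, with a median difference of 1.12 against 0.31 for the 10 cohesin genes. Ncapg (1.56), Ncaph (1.46), Smc2 (1.34), Ncapd2 (1.22), Ncapg2 (1.03), Ncapd3 (0.62) and Smc4 (0.50) rose, and Ncaph2 (0.25) did not pass. Smc4 lost its call without WT replicate 1 and without WT replicate 2. The condensin arm gene Smc2 was at 9.32 and 8.83 in the Id2 KO-labelled arrays, against 7.67 and 7.79 in WT, and its 95% interval of 1.02 to 1.67 lies above those of Smc3 and Smc1a. That of the other condensin arm gene, Smc4 (0.29 to 0.72), overlaps both. Of 6 genes of the complex of Smc5 and Smc6, which acts in DNA repair, Smc6 rose (0.42, adjusted p = 0.0257), while Smc5 (0.34), Nsmce1 (0.29) and Nsmce4a (0.16) did not pass. Nsmce3 (0.05) and Nsmce2 (-0.05), named after their values were seen, did not pass either. The call of Smc6 was lost without Id2 KO replicate 1 and without either WT array. The median of these 6 was 0.22. The difference between cohesin and the other complexes as groups was not tested.

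**Figure D4:**
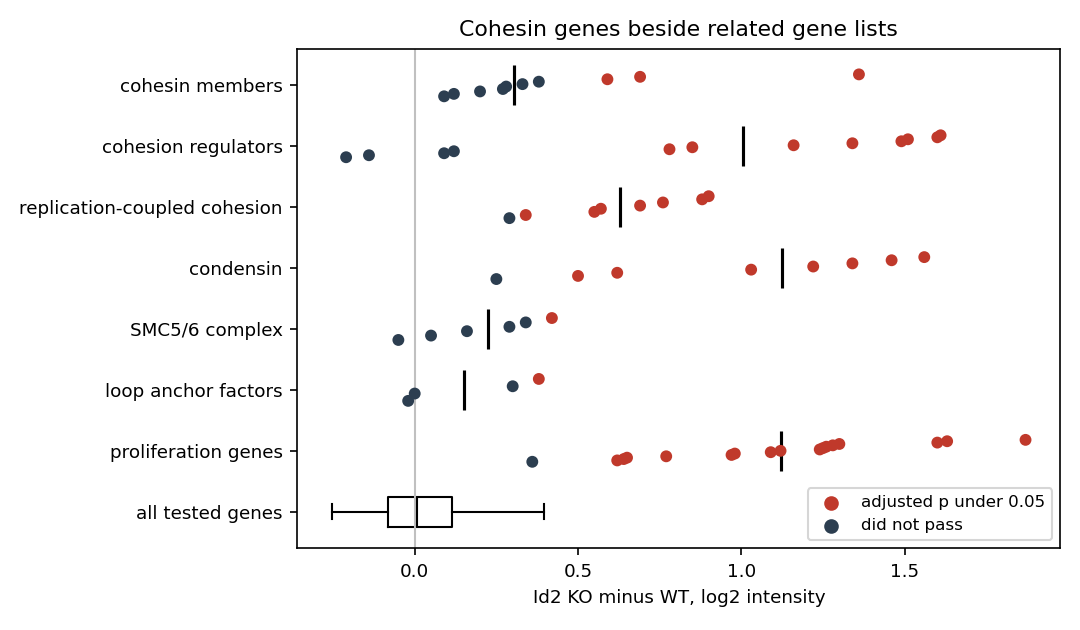
Difference in log2 intensity, Id2 KO minus WT, for each tested gene (point) of 7 lists, with the list median as a black line and red for adjusted p under 0.05. The box at the bottom shows all tested genes (quartiles and median, whiskers at the 5th and 95th percentiles). The cohesin genes have a median of 0.31, the condensin genes 1.12 and all tested genes 0.01.

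Proliferation genes were higher in the same arrays. Of 17 tested, 16 rose and none fell, with a median of 1.12, led by Kif11 (1.87), Ccna2 (1.63), Top2a (1.60) and Ccnb2 (1.30), and Pcna (0.36) did not pass. Without WT replicate 1, 10 passed. Their summed linear intensity was 22498 and 17546 in the Id2 KO-labelled arrays, against 10427 and 10709 in WT, while that of the 10 cohesin genes was 8821 and 7819 in the Id2 KO-labelled arrays, against 6360 and 6459 in WT. Both sums separated the groups, the one of the proliferation genes by more.

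Markers of other cells moved with the groups too. All 11 neutrophil markers fell (Ngp by 4.19, Lcn2 by 4.19), and their summed intensity was 1464 and 2382 in the Id2 KO-labelled arrays, against 17772 and 18430 in WT. Of 8 tested B cell markers 7 rose, led by Ms4a1 (1.53) and Cr2 (1.28), and Ighm (0.28) did not pass. Cr2 lay below the filter level on both WT arrays, at 6.19 and 6.32, so the size of its rise is uncertain. Over the 9 measured B cell markers, which include Ebf1 below the filter level, the sums were 2242 and 2618 in the Id2 KO-labelled arrays, against 1273 and 1290 in WT. Of the 7 calls, those of Cd79b and Blk were lost without either WT array, and that of Blk also without either Id2 KO-labelled array. The B cell sum was higher in replicate 2 of the Id2 KO-labelled arrays. Most cohesin genes were higher in replicate 1, and a relation between them was not tested. Of 6 plasmacytoid dendritic cell markers 3 rose, namely Ly6d (1.31), Spib (1.07) and Siglech (0.56). The other 3, Ccr9 (-0.16), Tcf4 (-0.07) and Bst2 (0.04), did not pass. The sums over all 6 were 2746 and 2543 in the Id2 KO-labelled arrays, against 2252 and 2208 in WT. Siglech lost its call without WT replicate 2. Of 5 tested monocyte and macrophage markers 3 fell, namely Cd14 (-0.88), Vcam1 (-0.48) and Adgre1 (-0.34), and without WT replicate 2 the calls of Vcam1 and Adgre1 were lost. That of Adgre1 was also lost without WT replicate 1 and without Id2 KO replicate 1. Of 2 tested erythroid markers Alas2 fell by 0.94 and Tfrc (0.24) did not pass. No marker of cDC1 (4 tested, Irf8 0.14 and Cd8a -0.12 furthest) or of T and NK cells (3 tested, Cd3e -0.10 and Cd5 0.09) passed, nor did any at an unadjusted p below 0.05. The part of the proliferation genes and of these other cells in the differences of the cohesin genes was not tested.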

How the data were processed

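Total RNA of sorted cells was amplified and labelled with biotin per the labels' protocols, and 4 arrays were hybridised. The file deposited by the authors holds linear intensity values, 1 for each probe set on each array. According to the submitters' processing notes, Affymetrix Expression Console and RMA were used, named without version or role. Array scaling of that kind largely removes a change in total RNA per cell. No background measurement was used here, and the number of arrays limits the precision.

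Of 28853 probe sets, 21789 had 1 gene symbol in the platform annotation, 1621 had several and 5443 were not listed, and 21698 of the first matched the RefSeq gene table of GRCm38.p6. For each of 19938 genes the probe set with the highest mean was used. The log2 values of the 11963 genes above the 40th percentile (log2 6.77) entered a linear model in R 4.3.3 with limma 3.58.1 (lmFit, eBayes), Id2 KO minus WT, two-sided, with Benjamini-Hochberg adjustment over all tested genes and a threshold of 0.05. The fit had 2 residual and 6.77 prior degrees of freedom. Adjusted p-values are limma's throughout, and 95% intervals are not adjusted. The procedure was run on simulated data with independent errors on each array, which cannot show effects shared by the arrays of a group. A list is described by its counts and median, without a test of the list.

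The members and gene lists were chosen with earlier results of these data known. Named were all 10 members, of each pathway list the genes past the threshold or the 4 furthest from 0 (for proliferation genes always the latter), the 2 furthest from 0 of each marker list, and the 3 genes closest to the member that differed most. Other genes named singly (marked in the text, or Ncaph2, Pcna, Cd4, Klf4, Esam, Ighm, Siglech, Ccr9, Tcf4, Bst2, Adgre1, Cd79b, Blk and Ebf1) were chosen after their values were seen. Alternatives changed the scaling, the filter, the probe set rule, the prior, the sex-linked genes, the replicate block and the arrays used.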

Additional observations from a re-analysis of the deposited data

How the results depend on the processing

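All 128 differences of the 10 genes under the 13 alternatives were above 0 (Smc1a and Stag2 have none without X- and Y-linked genes). Esco2 stayed between 1.23 and 1.48 (adjusted p at most 0.0013) and Rad21 between 0.58 and 0.80 (at most 0.0322), and both passed in each alternative. Smc3 lay between 0.46 and 0.73 and lost its call without WT replicate 1 alone. Leaving out each array in turn gave 2 to 5 called genes of the 10, 459 (without WT replicate 1) to 1171 of all genes (627 without WT replicate 2), 3 to 7 of the replication-linked list, 10 to 17 of the proliferation genes, 0 to 1 of the loop anchor factors (Ctcf) and 0 to 3 of the complex of Smc5 and Smc6. Without a filter 0 loop anchor factors passed in limma (2 at an unadjusted p below 0.05), and above the 60th percentile 2 did, where 0 meiotic genes were left to test. Chtf18 lost its call without a filter (adjusted p = 0.091) and with the replicate block (adjusted p = 0.107), which left 6 of the replication-linked list. Klf4, Adgre1 and Blk were also lost without a filter and with the block, Cd79b with the block, Klf4 and Adgre1 with each array centred on its median, and Blk with renewed quantile normalization.

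The replicate numbers are shared by the groups but nothing says what they mark, and deviations of same-numbered arrays from their group means correlated at -0.14 over the tested genes. With the replicate number as a block, limma called 684 genes in all, the same 3 cohesin genes, 0 loop anchor factors (2 at an unadjusted p below 0.05) and 0 genes of the complex of Smc5 and Smc6 (3 unadjusted). With the numbers crossed, an alternative chosen after seeing the data, 1380 genes, 5 cohesin genes, 2 loop anchor factors and 2 genes of that complex were called. The scanner background was not used, so differences with a group near or below log2 6.77 are uncertain in size. Among them are those of Sgo2a, Clspn, Dscc1, Zbtb46, Cr2 and Lcn2.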
